A study of Mus musculus with 2 samples.

Results

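The genes of the interleukin-1 (IL-1) and interleukin-18 (IL-18) systems were examined in RNA of mouse small peritoneal macrophages, a population of the abdominal cavity that grows from blood monocytes. They are 10 genes, listed by name and matched by gene ID, out of 55487 genes in the deposited count table: the ligands Il1a, Il1b and Il18, the antagonist Il1rn, the binding protein Il18bp, and the receptor genes Il1r1, Il1r2, Il1rap, Il18r1 and Il18rap. All 10 had 50 or more counts in at least 1 library. Both groups were male mice of the outbred SWISS stock, 5 weeks old, that received 20 mg/kg lipopolysaccharide (LPS) of Escherichia coli into the peritoneum, 30 mL/kg saline under the skin 6 h later, and were killed 22 h after LPS. The LPS group had nothing further, and the LPS+LCC-12 group also received 0.3 mg/kg LCC-12, known as a compound that binds copper in mitochondria, into the peritoneum 6 h after LPS. Each group was 1 library from pooled sorted cells, 102283 cells of 7 mice for LPS and 66967 cells of 8 mice for LPS+LCC-12. Unchallenged mice were not analysed here. A single library stood for each group, so no test was run, and every difference below is between 2 pools and has no replicate check.

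IL-1 alpha, IL-1 beta and IL-18 are inflammatory cytokines that macrophages make after microbial stimuli. IL-1 beta and IL-18 are made as precursors that caspase-1 cuts in the inflammasome, whereas the IL-1 alpha precursor is already active. IL-1 acts through the receptor Il1r1 with the shared chain Il1rap, and IL-18 through Il18r1 with Il18rap. Each branch has brakes: Il1rn encodes an antagonist that occupies Il1r1, Il1r2 is a decoy receptor that lacks the signalling domain, and Il18bp is a secreted protein that captures IL-18.

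The libraries held 50618409 counts for LPS and 47721888 for LPS+LCC-12. Macrophage genes were abundant in both: the 10 listed macrophage markers summed to 8651 and 9996 CPM (counts relative to library size, scaled with TMM, which matches the bulk of genes between the libraries), with Lyz2, a lysozyme, at 3049 and 4508 and Itgam, the CD11b integrin, at 1516 and 1315. Of 12 markers of small peritoneal macrophages, 8 exceeded the LPS library by 2-fold or more and none was lower by that much, with Ccr2 at 365.0 and 360.4 CPM and Cd74 at 357.4 and 727.4. Of 12 markers of large peritoneal macrophages, the resident cavity population, 10 were at least 2-fold higher after LCC-12 and none at least 2-fold lower. Their most counted were Prg4, at 118 and 306 CPM, and Serpinb2, at 54.5 and 226. Cd5l and Timd4 were 22.2-fold and 16.4-fold higher, at 466 and 10022 counts and at 318 and 5056. Gata6 was 1.40-fold higher, at 529 and 720 counts, and Selp was lower, at 5572 and 4575 (log2 ratio -0.24, -0.30 to -0.18). Of 15 neutrophil markers, 13 had 50 or more counts, of which 9 were at least 2-fold lower and none at least 2-fold higher. The log2 ratio was below 0 for 12 of the 13, while Padi4 was higher, at 2960 and 4273 counts (0.58, 0.51 to 0.64). Among all genes that reached 50 counts, 4.01% were at least 2-fold higher and 6.65% at least 2-fold lower. These marker lists were chosen with earlier results of these data known, so their counts are only a description.

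Of the IL-1 and IL-18 genes, 4 were at least 2-fold lower after LCC-12 (Il1rn, Il1r2, Il18r1 and Il18rap), 6 were within 2-fold and none was at least 2-fold higher. Among all 13482 genes that reached 50 counts, 6.65% were at least 2-fold lower and 4.01% at least 2-fold higher, and among the 11220 protein-coding ones, the class of all 10 members, 4.46% and 3.81%. The log2 ratio of LPS+LCC-12 over LPS lay below 0 for 9 of the 10 genes, with a median of -0.93 beside 0.02 over all genes with 50 or more counts. The exception was Il1r1. Counts of the 10 genes together were 3469 CPM (of unscaled totals) with LPS (95% exact binomial interval 3453 to 3485) and 1397 with LPS+LCC-12 (1387 to 1408). These intervals and those below cover counting error only, and neither differences between mice nor PCR copies. In pooled RNA, fewer cells of a type and less RNA per cell cannot be told apart.

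**Figure D1:**
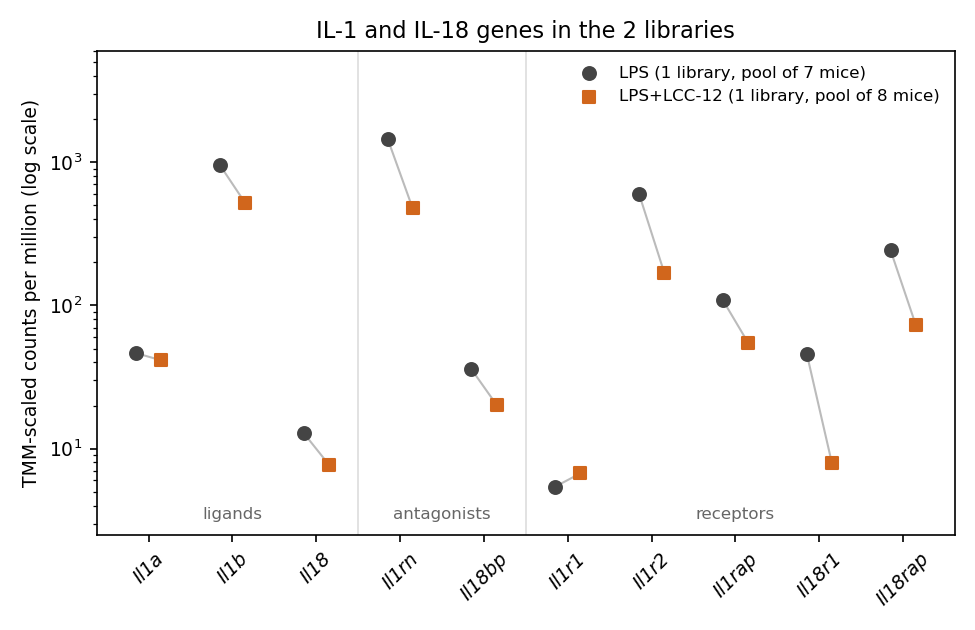
TMM-scaled CPM (log axis) of the 10 genes in the LPS library (circles) and the LPS+LCC-12 library (squares), 1 library each, with a line joining the values of a gene. The lines of Il1rn, Il1r2, Il18r1 and Il18rap are the steepest, Il1a is nearly level and Il1r1 is the only gene whose square is above its circle.

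Among the ligands, none passed the 2-fold limit. Il1b (chromosome 2, 129364570 to 129371139, minus strand, GRCm38) had 47726 counts after LPS alone and 25220 after LPS+LCC-12, or 956 and 521 CPM. Its log2 ratio was -0.87 (95% interval -0.90 to -0.85), a level 1.83-fold lower with LCC-12, and 8.19% of all genes had a ratio as low or lower. Il1a, its neighbour on the same strand (chromosome 2, 129299610 to 129309972), had 2319 and 2001 counts, or 46.4 and 41.4 CPM. The Il1a ratio was -0.17 (-0.25 to -0.08), with 32.2% of all genes as low or lower. The ratio of Il1a to Il1b counts was 1.63-fold larger with LCC-12 (1.53 to 1.74). Il18 (chromosome 9, 50554827 to 50581840, plus strand) was far less abundant, with 641 and 374 counts, or 12.8 and 7.73 CPM. Its log2 ratio was -0.73 (-0.92 to -0.54), and the ratio of Il18 to Il1b counts differed by a factor of 1.10 (0.97 to 1.26), within counting error. Il1b was thus lower in about the proportion of Il18, whereas Il1a was not.

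The bases before the RefSeq start of Il1a and Il1b are shown because these neighbouring ligand genes had unlike ratios. Each run is 250 bases, 5′ to 3′ on the minus strand of GRCm38.p6, chr2:129309973-129310222 for Il1a and chr2:129371140-129371389 for Il1b, and capitals mark the TATA box letters TATAAA:
Il1a: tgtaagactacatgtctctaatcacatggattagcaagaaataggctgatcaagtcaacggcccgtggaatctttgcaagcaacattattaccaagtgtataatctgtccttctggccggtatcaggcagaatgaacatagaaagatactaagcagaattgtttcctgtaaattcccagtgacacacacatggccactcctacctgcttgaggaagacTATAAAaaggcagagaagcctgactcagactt
Il1b: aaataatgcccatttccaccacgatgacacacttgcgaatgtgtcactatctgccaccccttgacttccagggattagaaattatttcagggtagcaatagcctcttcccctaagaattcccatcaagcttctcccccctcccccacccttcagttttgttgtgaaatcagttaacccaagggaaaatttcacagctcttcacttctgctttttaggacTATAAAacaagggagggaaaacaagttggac
Both runs hold TATAAA near the start, 32 to 27 bases before it in Il1a and 31 to 26 bases before it in Il1b. Over 32851 RefSeq windows of 250 bases, 12.4% hold TATAAA on either strand. RefSeq gives 15 such windows for the 10 genes, and TATAAA was found in 3 of the 15, for Il1a, Il1b and Il18. In Il18 it was on the other strand and farther away, 175 to 170 bases before the start. A first NF-kB motif and an interferon-stimulated response element, in 1.21% and 2.98% of all windows, were found for 0 of the 10, a second NF-kB motif, in 4.77%, for Il1rap alone, and the STAT kind TTCNNNGAA, in 7.02%, for Il18r1 and Il1r2. The Il18r1 matches lay before a start at 40466006 and the Il1r2 match before one at 40086093, both inside the gene's span. Their windows held 91 and 117 annotated exon bases, and all 250 bases of the Il18bp window were annotated exon. Matches were read on both strands. By their letters the NF-kB motifs cannot overlap one another or TATAAA, whereas each can overlap in part with the interferon and STAT kinds, and those with each other.

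The IL-1 antagonist gene showed a larger difference than any ligand. Il1rn (chromosome 2, 24336853 to 24351494, plus strand) reached 73059 counts after LPS alone, the most of the 10 genes, and 23016 after LPS+LCC-12. These were 1463 and 476 CPM, a level 3.07-fold lower with LCC-12 (log2 ratio -1.62, -1.64 to -1.60), and 2.37% of all genes had a ratio as low or lower. Il1rn made up 41.6% of the counts of the 10 genes with LPS (41.4 to 41.8) and 34.5% with LPS+LCC-12 (34.2 to 34.9), while Il1b made up 27.2% and 37.8%. The most counted gene of the system was therefore Il1rn after LPS alone and Il1b after LPS+LCC-12. Counts also depend on gene length. Per kilobase of exon Il1b was above Il1rn in both libraries, at 25027 against 13200 with LPS and 13225 against 4158 with LPS+LCC-12. Il18bp (chromosome 7, 102014885 to 102018690, minus strand) had 1791 and 979 counts, or 35.9 and 20.2 CPM. Its level was 1.77-fold lower (log2 ratio -0.82, -0.94 to -0.71), close to that of its ligand Il18. Il18bp shares 80 exonic bases with Numa1 on the opposite strand, a gene with 9091 and 9409 counts, and the use of strand in the counting is not given in the sources used here.

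Il1rn has several starts in RefSeq, which the counts per gene pool, so it is not known here from which start the difference came. The bases before 2 of them are shown, 5′ to 3′ on the plus strand of GRCm38.p6, cut before any exon of GENCODE M21, chr2:24336610-24336852 for the upstream start and chr2:24345041-24345287 for a downstream one. None of the motifs above was found in them, so no letter is in capitals:
Il1rn upstream start: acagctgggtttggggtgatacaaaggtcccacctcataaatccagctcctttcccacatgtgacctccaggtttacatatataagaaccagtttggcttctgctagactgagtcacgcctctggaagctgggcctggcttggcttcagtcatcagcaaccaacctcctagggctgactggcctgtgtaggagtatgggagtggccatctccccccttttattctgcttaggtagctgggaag
Il1rn downstream start: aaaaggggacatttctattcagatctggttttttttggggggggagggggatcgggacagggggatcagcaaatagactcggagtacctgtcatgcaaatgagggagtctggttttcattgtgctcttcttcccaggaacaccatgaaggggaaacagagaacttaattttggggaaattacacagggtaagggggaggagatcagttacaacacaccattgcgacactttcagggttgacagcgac
The first run has 243 bases and the second 247.

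Among the receptor genes, 3 of 5 were at least 2-fold lower with LCC-12. Il1r2, the decoy receptor (chromosome 1, 40074079 to 40125231, plus strand), had 29970 and 8194 counts, or 600 and 169 CPM. It was 3.54-fold lower (log2 ratio -1.82, -1.86 to -1.79). Il1r1, the signalling receptor (chromosome 1, 40225080 to 40317257), was the least abundant of the 10 genes with LPS, with 271 and 325 counts, or 5.43 and 6.72 CPM. Its log2 ratio was 0.31 (0.07 to 0.55), within 2-fold. The shared chain Il1rap (chromosome 16, 26581704 to 26730117, plus strand) had 5424 and 2657 counts, or 109 and 54.9 CPM. Its log2 ratio of -0.98 (-1.05 to -0.92) spanned the 2-fold limit, and it passed the limit with the size factors of DESeq2 and with the upper quartile, at -1.02 with the latter.

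Both chains of the IL-18 receptor were lower with LCC-12. Il18r1, which binds IL-18 (chromosome 1, 40465552 to 40500854), had 2298 and 383 counts, or 46.0 and 7.92 CPM. It was 5.81-fold lower (log2 ratio -2.54, -2.70 to -2.38), the lowest ratio of the 10 genes, with 0.608% of all genes as low or lower. Il18rap, the signalling partner chain (chromosome 1, 40515362 to 40551705), had 12092 and 3540 counts, or 242 and 73.2 CPM, and was 3.31-fold lower (log2 ratio -1.73, -1.78 to -1.67). The ratio of Il18rap to Il18r1 counts was 1.76-fold larger with LCC-12 (1.57 to 1.97), so the chains did not differ between the libraries in equal proportion. The 250 bases before the start of Il18rap, the more abundant chain, are shown as a member of the lower group whose window holds no annotated exon (chr1:40515112-40515361, plus strand, GRCm38.p6); none of the motifs was found in them:
Il18rap: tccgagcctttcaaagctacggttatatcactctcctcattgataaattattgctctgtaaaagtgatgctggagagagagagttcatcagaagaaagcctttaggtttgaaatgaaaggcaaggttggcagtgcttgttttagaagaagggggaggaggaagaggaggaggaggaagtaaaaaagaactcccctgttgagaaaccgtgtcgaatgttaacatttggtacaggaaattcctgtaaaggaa

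**Figure D2:**
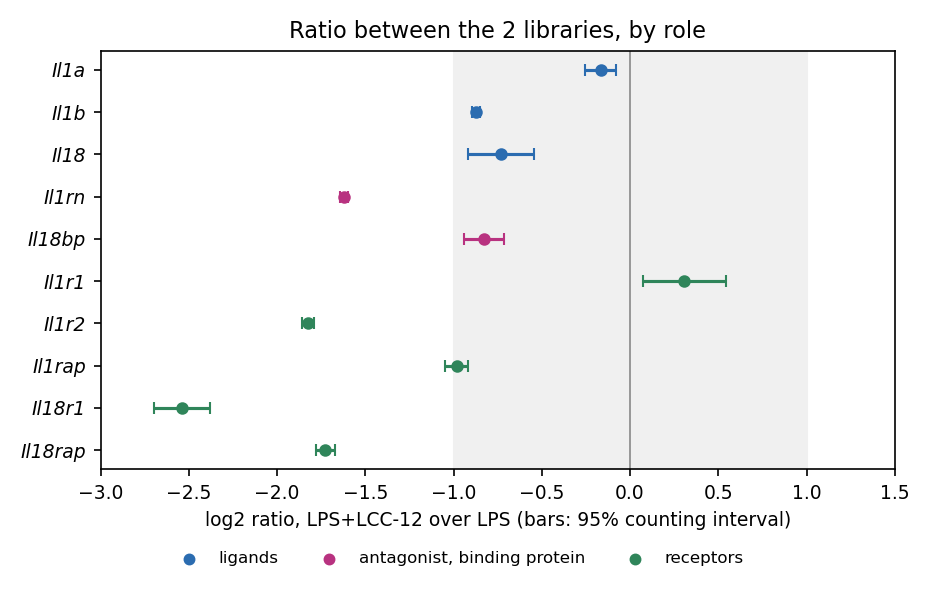
Log2 ratio of LPS+LCC-12 over LPS for each gene, coloured by role, with the 95% counting interval as bars and the range within 2-fold in grey. Il1rn, Il1r2, Il18r1 and Il18rap lie wholly left of the grey range, the interval of Il1rap crosses its edge, and Il1r1 is right of 0.

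The balance between partners was compared within each library, which needs no scaling between libraries, as the ratio of counts per kilobase of exon (the union of a gene's exons). The ratio of Il1rn to Il1b was 0.527 after LPS alone (0.521 to 0.534) and 0.314 after LPS+LCC-12 (0.309 to 0.320), which is 1.68-fold smaller (1.64 to 1.71). Against Il1a the antagonist ratio was 11.2 and 4.10, which is 2.74-fold smaller (2.57 to 2.91). The antagonist transcript was thus scarcer relative to both IL-1 ligand transcripts after LCC-12. In the receptors, Il1r2 exceeded Il1r1 by 369-fold with LPS (327 to 417) and by 84.1-fold with LPS+LCC-12 (75.2 to 94.2), a ratio 4.39-fold smaller (3.71 to 5.18). The decoy remained far above the signalling receptor in both libraries. Il1rap exceeded Il1r1 by 11.2-fold and 4.58-fold, a ratio 2.45-fold smaller (2.06 to 2.91). Il18bp and Il18 were near parity, at 0.952 (0.869 to 1.04) and 0.892 (0.791 to 1.01), and the change of that ratio, by a factor of 0.937 (0.805 to 1.09), was within counting error.

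Ordered by TPM (a level per exon length), the LPS library ran Il1b (582), Il1r2 (365), Il1rn (307), Il18rap (41.6), Il1a (27.3), Il18 (14.5), Il18bp (13.8), Il1rap (11.1), Il18r1 (11.1) and Il1r1 (0.990). The neighbours Il18 and Il18bp, and Il1rap and Il18r1, did not differ beyond counting error. In the LPS+LCC-12 library the TPM were 349 for Il1b, 113 for Il1r2, 110 for Il1rn, 26.8 for Il1a, 13.8 for Il18rap, 9.58 for Il18, 8.54 for Il18bp, 6.18 for Il1rap, 2.10 for Il18r1 and 1.35 for Il1r1. Il1a stood above Il18rap there and below it with LPS, and the counting intervals of Il1r2 and Il1rn, and of Il18 and Il18bp, overlapped. With the longest coding transcript as length, Il1rn stood above Il1r2, and Il1rap above Il18, in both libraries. Il1rap and Il18r1 were then no longer level with LPS, at 1200 (1168 to 1232) and 553 (530 to 576) counts per kb.

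**Figure D3:**
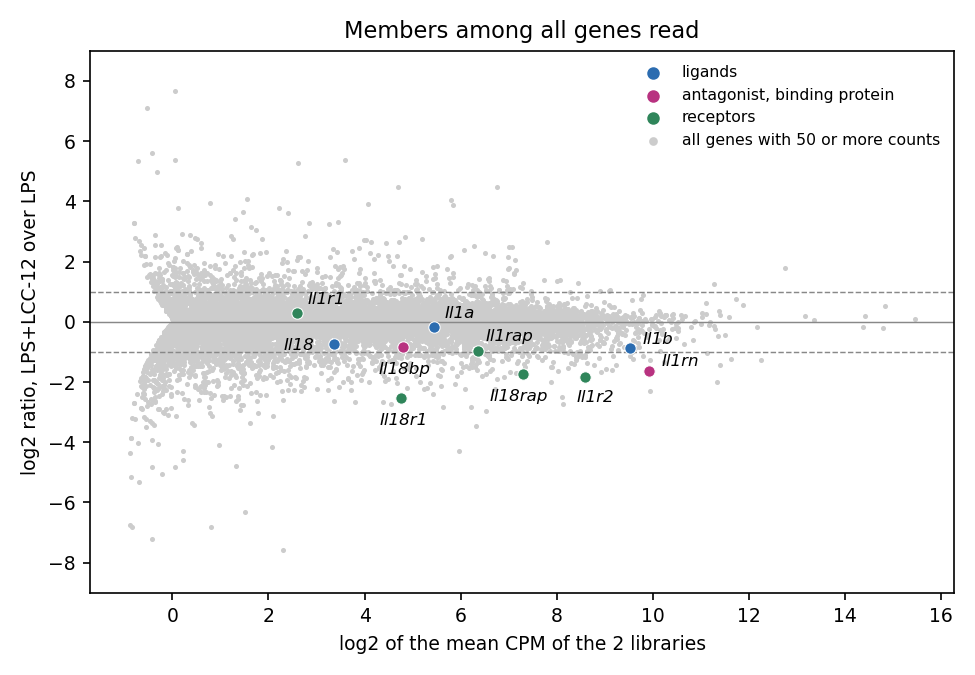
Log2 ratio of LPS+LCC-12 over LPS against the log2 of the mean CPM for the 13482 genes that reached 50 counts in either library (grey), with the 10 genes coloured by role and the 2-fold limits dashed. Il1rn, Il1r2, Il18rap and Il18r1 lie below the lower dashed line, and Il1b and Il1rn are among the more abundant genes.

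The protein-coding genes whose level and ratio were nearest those of Il1b, by distance on the log2 scales of mean CPM and ratio over 2 libraries, were Irak3 (distance 0.016), Wdfy3 (0.108) and Slfn2 (0.129). Irak3, an inhibitor of IL-1 and Toll-like receptor signalling, had 47253 and 25185 counts beside the 47726 and 25220 of Il1b.

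Most receptor genes of the family lie next to one another, and the ratio differed along the cluster. From Il1r2 to Il18rap, 478 kb of chromosome 1 (40074079 to 40551705) hold 6 protein-coding genes. The outer genes Il1r2, Il18r1 and Il18rap were at least 2-fold lower with LCC-12, and the genes between them, Il1r1, Il1rl2 and Il1rl1, were within 2-fold. Il1rl2, the IL-36 receptor, had 738 and 746 counts (log2 ratio 0.06, -0.09 to 0.21), and Il1rl1, the IL-33 receptor, had 327 and 248 (-0.35, -0.60 to -0.11). Il1rl1 and Il18r1 are adjacent, and their ratios were -0.35 and -2.54. These neighbourhoods were chosen after the values were seen, and are a description.

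A second neighbourhood on chromosome 2, from Il1f9 to Il1rn (24186476 to 24351494, 165 kb), holds 5 protein-coding genes. Il1f9, which encodes the IL-36 gamma ligand, stood at 22294 and 7425 counts, a level 2.91-fold lower with LCC-12 (2.83 to 2.99) beside 3.07-fold for Il1rn. Il1f6, the IL-36 alpha ligand, had 85 and 32 counts, 2.55-fold lower (1.69 to 3.99). Il1f5 had 2 and 0 counts and Il1f10 had 0 in both. The 3 protein-coding genes with 50 or more counts in this neighbourhood were thus at least 2-fold lower, although the interval of Il1f6 reached inside the limit.

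Transcripts inside or across the members differed in the same direction in some cases. Gm37347, an unverified transcript within Il1r2 on the same strand and with no exonic base in common, had 10864 and 3266 counts, which is 36.2% and 39.9% of the counts of Il1r2, and was 3.22-fold lower (log2 ratio -1.69, -1.74 to -1.63). Gm16894, annotated antisense to Il1r2, had 405 and 80 counts (-2.29, -2.66 to -1.94). Il1bos, opposite to Il1b with 25 shared exonic bases, had 195 and 86 counts. Whether reads were shared across strands was not tested.

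**Figure D4:**
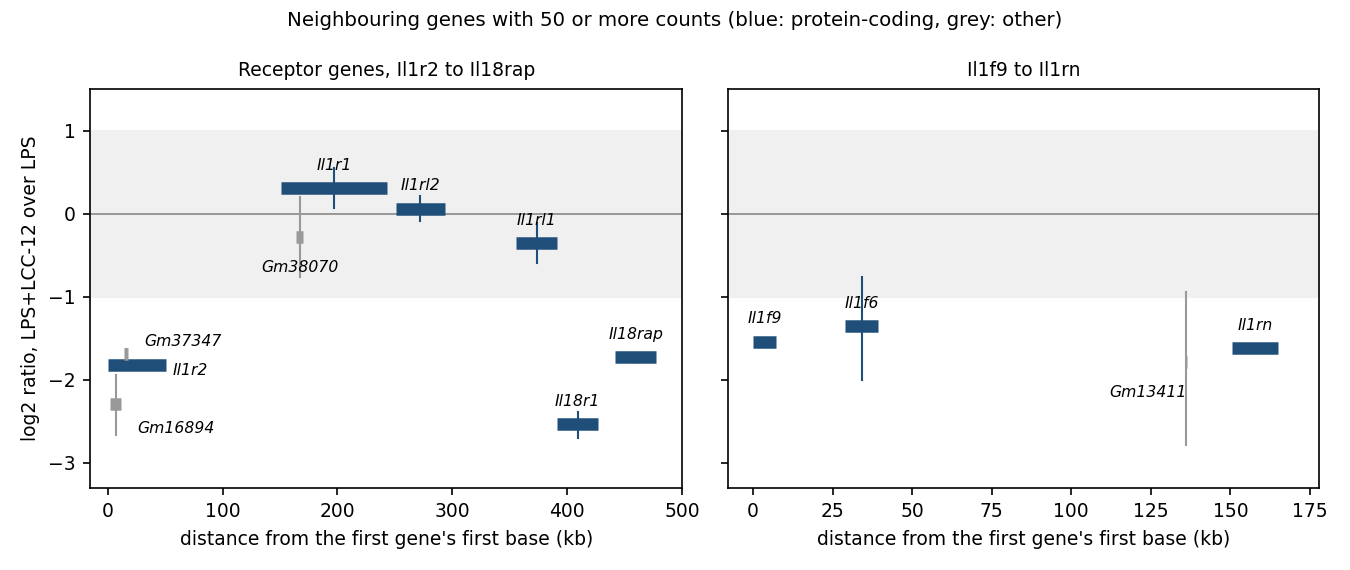
Log2 ratio of LPS+LCC-12 over LPS along 2 gene neighbourhoods, with each gene with 50 or more counts as a bar over its extent in kb from the first gene's first base, a vertical line for the 95% counting interval and the range within 2-fold in grey. On the left Il1r2, Il18r1 and Il18rap lie below the grey range and Il1r1, Il1rl2 and Il1rl1 inside it; on the right Il1f9 and Il1rn lie below it with their intervals, and the interval of Il1f6 runs into it.

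Some marker lists of other cells were lower along with these genes, and others were not. The 15 neutrophil markers summed to 9367 and 3605 CPM, 2.60-fold lower after LCC-12, with S100a9, a calprotectin subunit, at 3913 and 1464 and Csf3r, the granulocyte colony-stimulating factor receptor, at 1397 and 575. Neutrophils are known to express Il1b, Il1rn, Il1r2 and Il18rap, and the part of these cells in the lower counts was not tested. Of 9 mast cell markers 5 were at least 2-fold lower, with a sum of 214 and 68.7 CPM, of which Hdc, histidine decarboxylase, gave 197 and 62.3 and Kit, a receptor of mast cells, 6.33 and 1.86. The part of mast cells was not tested. Of 10 monocyte markers 5 were at least 2-fold lower and 1, Fn1, higher by as much. The log2 ratio was below 0 for 9 of the 10, with a median of -0.97. Their sum was 9166 and 14445 CPM, of which Fn1, the only one above 0, gave 3114 and 10656 and Chil3 1727 and 686. The summed level of the large peritoneal macrophage markers was higher, at 400.4 CPM with LPS and 1191 with LPS+LCC-12. That of the small peritoneal macrophage markers was 1140.4 and 1767. The part of these shifts in the IL-1 and IL-18 values was not tested.

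Lymphocytes are the best known carriers of the IL-18 receptor. The 12 T cell markers summed to 9.89 and 7.28 CPM, of which Il7r, the most counted, gave 4.75 and 4.24. Cd3d, a chain of the T cell receptor complex and the next most counted, had 104 and 55 counts (log2 ratio -0.87, -1.37 to -0.39). Of the same complex, Cd3e had 31 and 4 counts and Cd3g 25 and 22. In all, 10 of the 12 T cell markers were under 50 counts in both libraries, and among these Cd28 was higher, at 0 and 7. The 10 NK cell markers summed to 4.47 and 3.45 CPM, with Klrk1 at 79 and 63 counts and Klra8 at 0 in both libraries. Gzmb, a granzyme, lay past the limit on few counts, 72 and 27 (-1.35, -2.06 to -0.71). Gzma, another granzyme, was higher, at 24 and 42 (0.84, 0.10 to 1.64). The part of lymphocytes in the counts of Il18r1 and Il18rap was not tested.

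Mesothelial and fibroblast cells can carry Il1r1, which stood at 5.43 and 6.72 CPM. The 8 mesothelial markers summed to 8.09 and 1.36 CPM, with Upk3b at 129 and 31 counts and Krt19 at 78 and 28. The 7 fibroblast markers summed to 12.4 and 3.64 CPM, with Dcn at 230 and 118 counts, Col3a1 at 135 and 32, and Lum and Dpt at 0 in both. Both sums were lower with LCC-12. The sum of 5 endothelial markers was higher, at 2.14 and 2.75 CPM, all on few counts. Of these, Cdh5 had 33 and 62 counts and Tie1 27 and 35, while Vwf had 36 and 16. The part of any of these cells in the Il1r1 counts was not tested.

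The rest of the pathway was read from 6 lists of 80 genes, of which 69 had 50 or more counts, 13 were at least 2-fold lower and none at least 2-fold higher, beside the 6.65% and 4.01% of all genes. The median log2 ratio of the 69 was -0.35, beside -0.93 for the 10 IL-1 and IL-18 genes and 0.02 for all genes. Of 15 genes that process and release IL-1 beta and IL-18, 14 stayed within 2-fold and 1 was lower, a share near that of all genes, with a median of -0.21. The gene below the limit was Mefv, which encodes the inflammasome sensor pyrin, at 10646 and 5016 counts (2.06-fold lower, log2 ratio -1.04, -1.09 to -0.99), which came within the limit, at -0.98, with totals that leave out mitochondrial genes and the 100 most abundant. Of genes named after their values were seen, Casp1, the converting enzyme, had 2964 and 3147 counts (0.13, 0.06 to 0.21), the sensor Nlrp3 had 11016 and 6140 (-0.80, -0.84 to -0.75) and Gsdmd, the pore-forming protein, 8965 and 7243 (-0.26, -0.31 to -0.22).

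All 16 genes of receptor signalling were within 2-fold, with a median of -0.08, and Irak2, a kinase of the pathway, passed the limit with DESeq2 and upper-quartile scaling, at -1.01 and -1.03. The most counted were Irak3, at -0.86 (-0.88 to -0.84), and Myd88, the adaptor of IL-1, IL-18 and Toll-like receptors, with 9340 and 6868 counts (-0.40, -0.44 to -0.35). Of 16 genes known to respond to IL-1, many of which also respond to LPS, 5 were at least 2-fold lower and 9 within 2-fold, with a median of -0.74. The lowest were Lcn2, an iron-siderophore binding protein (2.35-fold lower), the neutrophil chemokines Cxcl2 (2.26-fold) and Cxcl5 (2.21-fold, on 53 and 23 counts) and the granulocyte factor Csf3 (2.17-fold).

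The lists around IL-18 had a few low genes. IL-18 is known to act with IL-12 to induce interferon gamma in lymphocytes. Il12a, a subunit of IL-12, stood at 1653 and 460 counts, 3.48-fold lower (log2 ratio -1.80, -1.95 to -1.65), and was the 1 gene of 10 in that list past the limit. Ifng itself had 0 counts in both libraries, which allows up to 0.0593 CPM with LPS and 0.0629 with LPS+LCC-12 (3 counts). Interferon gamma induces a group of genes that in macrophages is known to include Il18bp. Of 12 listed genes of this group, 4 were at least 2-fold lower and none at least 2-fold higher, with a median of -0.58. The 4 were Ido1 (5.66-fold lower, on 55 and 9 counts), Cxcl10 (4.03-fold), Socs1 (3.70-fold) and Gbp5 (2.16-fold), while Il18bp was 1.77-fold lower. The log2 ratio was below 0 for 11 of the 12, and Ciita was higher, at 549 and 721 counts (0.44, 0.28 to 0.60).

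Among the other IL-1 family genes, 6 of 11 were under 50 counts and only Il1f9 and Il1f6 passed the limit. Il33, a cytokine of barrier and stromal cells, had 9 and 16 counts. Sigirr, an inhibitory receptor, stood at 63 and 77 counts, and its interval spanned 0 (log2 ratio 0.33, -0.16 to 0.84).

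**Figure D5:**
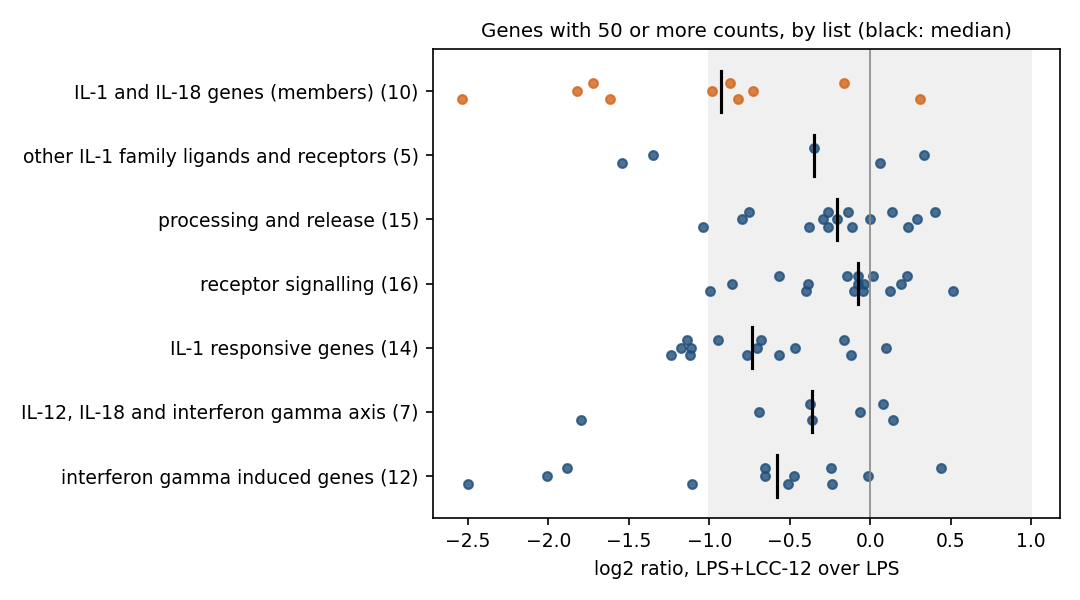
Log2 ratio of LPS+LCC-12 over LPS for each gene with 50 or more counts in the 10 IL-1 and IL-18 genes (orange) and in 6 lists of related genes (blue), with the number of genes in brackets, the median as a black line and the range within 2-fold in grey. The median of the IL-1 and IL-18 genes, -0.93, is the lowest of the 7 rows, and the receptor signalling genes lie wholly inside the grey range.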

How the data were processed

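Stranded, ribosome-depleted libraries were made from 10 ng of total RNA with 12 cycles of PCR and read as pairs of 100 bp, per the labels' protocols. The values deposited by the authors are raw counts per gene, not normalized. Per the submitters' processing notes, STAR and mm10 were used. Which counting tool, strand setting and annotation were used is not given in the sources used here.

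Of 55487 gene IDs, 55394 matched GENCODE M21 (GRCm38), which gave symbols, positions and exon lengths. Older symbols matched 4 list entries. Promoter windows came from RefSeq on GRCm38.p6.

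Counts were scaled with TMM (edgeR 4.0.16, R 4.3.3), with 0.5 counts added per library. With 1 library per group no spread can be estimated, so no test was run. A gene counted as higher or lower at 2-fold where either library had 50 or more counts. Intervals are exact 95% ones (Clopper-Pearson for splits and shares, Poisson for levels, conditional odds ratio for ratios of ratios; SciPy 1.17.1). The code was tested on simulated data.

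The 10 members and all lists were chosen with earlier results of these data known. In each pathway list up to 4 genes past the limit with the largest ratios were named, or the 2 most counted. In marker lists set beside a member, the 2 most counted and those at 0 in both were taken. Cd5l, Timd4, Gata6, Selp, Padi4, Cd3e, Cd3g, Cd28, Gzma, Ciita and Vwf were named after their values were seen. The 3 genes nearest Il1b were also named. Alternatives were total counts, DESeq2 1.42.0 and upper-quartile scaling, totals that leave out mitochondrial genes and the 100 most abundant, 5 added counts, thinning, other count minimums and size limits, and another gene length. Of the listed markers, B cells (7 genes, 197 and 232 CPM) and dendritic cells (8 genes, 8.27 and 6.97 CPM) are given here only.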

Additional observations from a re-analysis of the deposited data

How the results depend on the processing

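No member was at least 2-fold higher under any alternative run. The number at least 2-fold lower was 4 or 5 under the other scalings, 5 added counts, thinning of the deeper library, count minimums of 1, 10 and 200, a 3-fold limit and the whole interval beyond 2-fold. It was 8 with a limit of 1.5-fold. The share of all genes that was lower was 13.3% at 1.5-fold, 2.52% at 3-fold, 3.86% with the whole interval beyond 2-fold, and 24.2%, 13.1% and 4.18% with count minimums of 1, 10 and 200, beside 6.65%. The median log2 ratio of the members, -0.93, ran from -0.96 to -0.87, the latter with totals that leave out mitochondrial genes and the 100 most abundant. Over the 4 other scalings, 5 added counts and thinning, no member changed the sign of its ratio. The ranges were -1.65 to -1.56 for Il1rn, -1.86 to -1.76 for Il1r2, -2.57 to -2.48 for Il18r1, -1.76 to -1.67 for Il18rap, -0.91 to -0.81 for Il1b and 0.27 to 0.37 for Il1r1. Of the 80 pathway genes, 13 were at least 2-fold lower; 24 were with a limit of 1.5-fold and 4 with a limit of 3-fold. With a count minimum of 1, 1 pathway gene was at least 2-fold higher (Il12b, 0 and 2 counts). The change of a ratio between members does not depend on gene length, whereas the level of a ratio within a library does. No paired analysis was possible because each group was 1 library. Depth limits Il18, Il1r1 and Il18r1 most, with 374, 325 and 383 counts after LPS+LCC-12.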
